A study of Mus musculus with 6 samples.

Results

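The glutathione transferases described here are 10 genes of the pi class (Gstp1, Gstp2), the theta class (Gstt1, Gstt2, Gstt3), the kappa class (Gstk1), the omega class (Gsto1) and the microsomal family (Mgst1, Mgst2, Mgst3). They were chosen by symbol from the 21899 genes in the deposited table, and all 10 were found, each on 1 row. Liver polyA RNA had been sequenced from wild-type C57BL6J mice after 6 weeks on a diet lacking methionine and choline (MCD, 3 libraries) or on the matching diet with both nutrients (MCS, 3 libraries). Both groups were wild type. The labels name no other agent, give no age or sex and do not say whether each library came from its own animal, and the p-values therefore reflect the scatter of these libraries, which may be technical. The deficient diet serves as a mouse model of steatohepatitis, and the question addressed is which liver transcripts differ under it.

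Glutathione transferases join the tripeptide glutathione to reactive, electron-poor compounds, which can then be exported from the cell and broken down to mercapturates. The pi, theta and omega enzymes are soluble proteins of the cytosol, the kappa enzyme lies in mitochondria and peroxisomes, and the microsomal enzymes are unrelated integral membrane proteins of the MAPEG family, whose other members make leukotrienes and prostaglandins. Methionine is a source of the cysteine from which the liver makes glutathione, so the diet removes a precursor of the substrate that all these enzymes use.

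The pi genes are shown first by sequence, because their copies decide how far their counts can be told apart. In the RefSeq annotation of GRCm38.p6 the genes Gstp1, Gstp2 and Gstp3, a pi gene outside the 10, follow each other on chromosome 19, and Gstt3, Gstt1, Gstt4 and Gstt2 follow each other on chromosome 10. The lines that follow give the first 90 coding bases of the 3 pi genes from the GENCODE M21 transcripts, with capitals where a base differs from Gstp1.
Gstp1 coding bases 1 to 90: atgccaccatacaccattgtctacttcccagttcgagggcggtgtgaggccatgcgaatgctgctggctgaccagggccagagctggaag
Gstp2 coding bases 1 to 90: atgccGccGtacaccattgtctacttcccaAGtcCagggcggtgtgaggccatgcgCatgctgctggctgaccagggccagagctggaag
Gstp3 coding bases 1 to 90: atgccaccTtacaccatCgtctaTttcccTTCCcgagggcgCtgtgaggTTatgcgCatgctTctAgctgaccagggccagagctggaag
In this stretch 6 bases of Gstp2 and 13 bases of Gstp3 differed from Gstp1. Over the whole coding sequence of 633 bases, Gstp1 and Gstp2 were identical at 621 bases (98.1%), and 71.1% of all 50-base windows of Gstp2 also occurred in Gstp1. Gstp3 was 73.5% identical to Gstp1 and shared no 50-base window with it. The theta pairs were 61.9% to 75.9% identical and the microsomal pairs 53.4% to 54.1%, also with no shared window. Single values of Gstp1 and Gstp2 are therefore uncertain to the extent that the counting exchanged reads between them, and their sum is given beside them.

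Promoters were read from the RefSeq table of GRCm38.p6, which spans 250 bases before to 50 bases after a start site and held 9 of the 10 genes (not Gstt2). Those of Gstp1 and Gstp2 are shown because near copies of a promoter lie before genes with very different levels, and that of Mgst3 because this gene differed most between the diets. Capitals mark matches on either strand to TGANTCA, the core bound by AP-1 and related leucine zipper factors, or to TGACNNNGC, the core of the antioxidant response element bound by NRF2. The motifs can overlap but did not do so here.
Gstp1 promoter, GRCm38.p6 chr19:4037863-4038162, minus strand: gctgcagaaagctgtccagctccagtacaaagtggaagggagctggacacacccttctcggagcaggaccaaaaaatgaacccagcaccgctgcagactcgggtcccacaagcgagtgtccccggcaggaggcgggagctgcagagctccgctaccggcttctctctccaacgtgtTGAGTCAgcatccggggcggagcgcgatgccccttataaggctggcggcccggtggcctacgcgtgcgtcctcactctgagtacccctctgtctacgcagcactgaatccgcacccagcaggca
Gstp2 promoter, GRCm38.p6 chr19:4042172-4042471, minus strand: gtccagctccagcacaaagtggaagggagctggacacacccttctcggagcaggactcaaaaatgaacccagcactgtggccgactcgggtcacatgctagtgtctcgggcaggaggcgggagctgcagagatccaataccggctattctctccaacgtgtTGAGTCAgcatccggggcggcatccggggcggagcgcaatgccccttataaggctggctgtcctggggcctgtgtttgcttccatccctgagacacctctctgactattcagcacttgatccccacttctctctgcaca
Mgst3 promoter, GRCm38.p6 chr1:167393792-167394091, minus strand: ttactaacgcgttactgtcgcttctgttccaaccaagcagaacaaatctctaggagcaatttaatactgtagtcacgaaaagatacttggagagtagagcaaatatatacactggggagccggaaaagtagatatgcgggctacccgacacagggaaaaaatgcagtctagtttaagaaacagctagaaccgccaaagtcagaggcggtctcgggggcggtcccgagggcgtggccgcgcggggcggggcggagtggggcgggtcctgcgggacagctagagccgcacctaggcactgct
Gstp1 and Gstp2 were identical at 243 of 300 promoter bases (81.0%), and each held 1 match to TGANTCA, beginning 74 bases before the start site in Gstp1 and 89 bases before it in Gstp2. Mgst3 held no match to either motif in this window, while Mgst2 held 1 match to TGANTCA and 1 of the 2 listed Mgst1 promoters held 1 match to TGACNNNGC. Of all 32851 promoters in the table, 7.81% held TGANTCA and 12.4% held TGACNNNGC. In Gstp1 and Gstp2 the TGANTCA match runs on as TGAGTCAgc, which has G where TGACNNNGC has C and otherwise matches it. Looser forms of the antioxidant response element were not searched. A match is a description of the letters and not evidence of binding.

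Library totals ran from 16615469 to 21322771 counts, so that 3 counts correspond to 0.104 to 0.227 CPM (counts relative to library sizes scaled by the TMM method). Differences between diets are log2 fold changes ± SE (MCD relative to MCS, 3 libraries each) estimated with edgeR's quasi-likelihood test, and p-values were adjusted by Benjamini-Hochberg across the 12599 genes tested. Where 3 values of a diet are given they follow replicate order. Levels are CPM, mean ± SD over 3 libraries, where the diets are compared, and deposited TPM, transcript abundances that correct for gene length, where genes are compared with each other. The scaling matters here: the median log2 fold change of all tested genes was 0.01 with TMM and 0.57 with library size alone, so each change is read against the other genes. MCS replicate 3 stood apart from the other MCS libraries (chi-square per degree of freedom of 141 and 158 against 14.0 between the others). The MCD libraries also differed from each other (33.5 for replicates 1 and 2, 50.8 for replicates 1 and 3, and 115.7 for replicates 2 and 3), and results that rest on a single library of either diet are given without it.

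Of the 9 genes tested, 1 rose on the MCD diet, Mgst3, and 8 did not pass at adjusted p under 0.05. Among all tested genes 24.7% passed in either direction, 14.8% rose and 9.97% fell. The median log2 fold change of the 9 genes was −0.34. Mgst2 had too few counts to be tested. For 2 of the 9 genes, Mgst1 and Mgst3, CPM ranges of the diets were separate, against 45.3% of all tested genes. With library size alone 5 of the 8 genes that did not pass had a log2 fold change above 0 (Gstp1, Gstt1, Gstt2, Gstt3 and Gsto1), where with TMM their values lay below 0, so the direction of these 5 genes depends on the scaling. Without MCD replicate 2, 5 of the 9 genes passed, Mgst3 and Gstp2 upward and Mgst1, Gstk1 and Gstt2 downward, where 34.1% of the 13000 genes tested in that fit passed. In bulk tissue such as this, fewer cells of a type and less RNA per cell cannot be told apart.

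**Figure D1:**
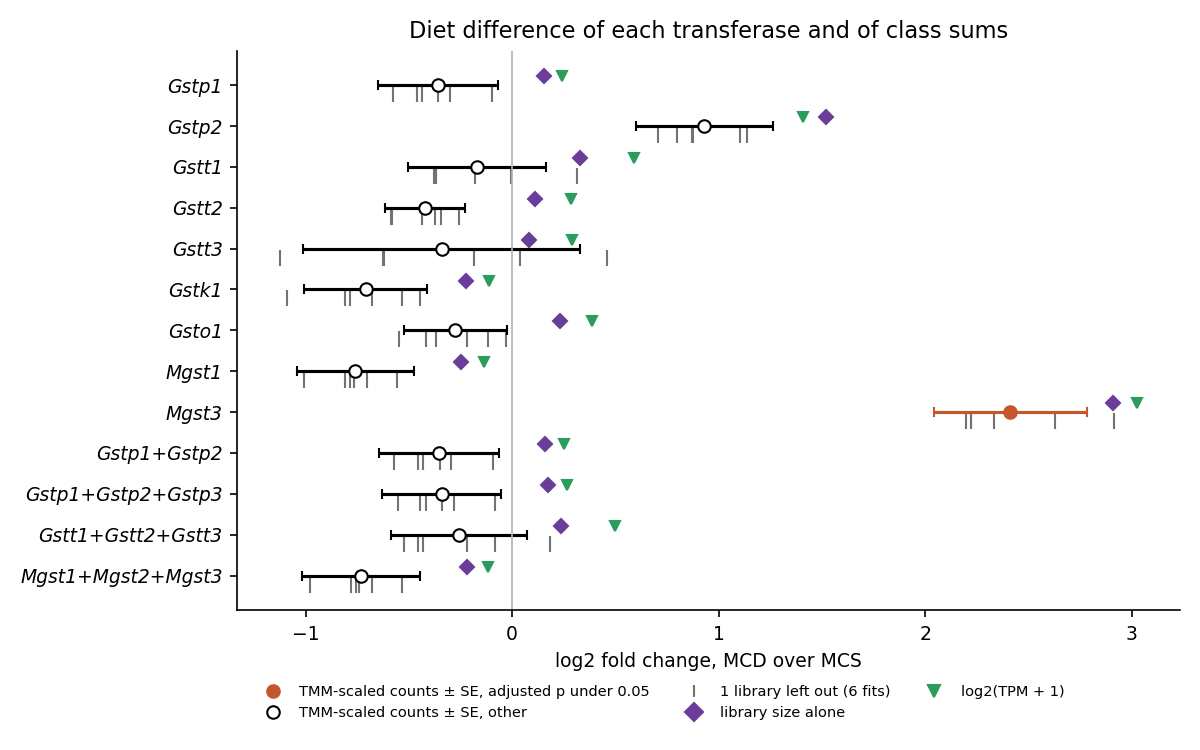
Log2 fold change of MCD over MCS for the 9 tested genes and 4 class sums. Circles with bars are TMM-scaled counts ± SE (filled where adjusted p is under 0.05), ticks are the 6 fits with a library left out, diamonds use library size alone and triangles use log2(TPM + 1); Mgst3 lies to the right of all others at 2.41 ± 0.37.

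Mgst3 (ENSMUSG00000026688), a membrane enzyme with glutathione transferase and peroxidase activity, was the gene that rose. It had 6.04, 6.27 and 13.8 CPM on MCS and 51.8, 56.8 and 31.4 CPM on MCD. The diets did not overlap, MCS replicate 3 was the highest control library and MCD replicate 3 the lowest MCD library. The mean went from 8.70 ± 4.41 to 46.6 ± 13.4 CPM, a 5.32-fold rise (2.41 ± 0.37 on the log2 scale, adjusted p = 0.00490). Its raw counts ran from 83 to 250 per MCS library and from 902 to 1255 per MCD library, so counting error is small beside the spread between libraries. Mgst3 passed in each of the 15 alternative fits, with log2 fold changes of 2.197 to 3.14 and adjusted p of 1.37e-09 to 0.0247. With MCS replicate 3 and MCD replicate 3 both left out, a setting chosen after seeing the data, its log2 value was 3.14 (adjusted p = 5.65e-08). It was 3.02 on the log2(TPM + 1) scale.

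Mgst1 (ENSMUSG00000008540), the abundant microsomal transferase of the endoplasmic reticulum and outer mitochondrial membrane, had the highest level of the 10 genes in every library. It stood at 4015, 3489 and 3615 CPM on MCS and at 2210, 2815 and 1545 CPM on MCD. All 3 MCD libraries lay below all 3 MCS libraries, but the difference did not pass (log2 fold change −0.76 ± 0.29, adjusted p = 0.0822). By DESeq2 it passed (−0.78, adjusted p = 0.00611), as it did without MCD replicate 2 (−1.01, adjusted p = 0.0209), the MCD library with the highest level. On the log2(TPM + 1) scale it was −0.14 (adjusted p = 0.511), a scale on which the median of all genes was 0.53.

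Mgst2 (ENSMUSG00000074604), which makes leukotriene C4 outside blood cells, was near the limit of detection. It had 1, 0 and 0 counts on MCS and 2, 1 and 3 counts on MCD. The ratio of MCD to MCS was 4.002 with a 95% counting interval of 0.486 to 184, which includes no difference. The sum of the 3 microsomal genes was close to Mgst1 alone, at −0.73 ± 0.29 (adjusted p = 0.0914). It passed by DESeq2 (−0.75, adjusted p = 0.00848) and without MCD replicate 2 (−0.98, adjusted p = 0.0237).

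Within the microsomal family the balance between Mgst3 and Mgst1 can be read inside each library, where scaling between libraries has no part. Mgst3 made up 0.114%, 0.137% and 0.293% of the summed microsomal TPM on MCS, and 1.77%, 1.52% and 1.53% on MCD. Mgst1 transcripts outnumbered those of Mgst3 by 340 to 878 times in the MCS libraries and by 55.5 to 64.8 times in the MCD libraries. The log2 ratio of Mgst3 to Mgst1 was −9.23 ± 0.73 on MCS and −5.94 ± 0.12 on MCD, with no overlap. An exact two-sided permutation test gave p = 0.1, which is the smallest p that 3 against 3 libraries allow (adjusted p = 0.2 over this ratio and that of Gstp2 to Gstp1).

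**Figure D2:**
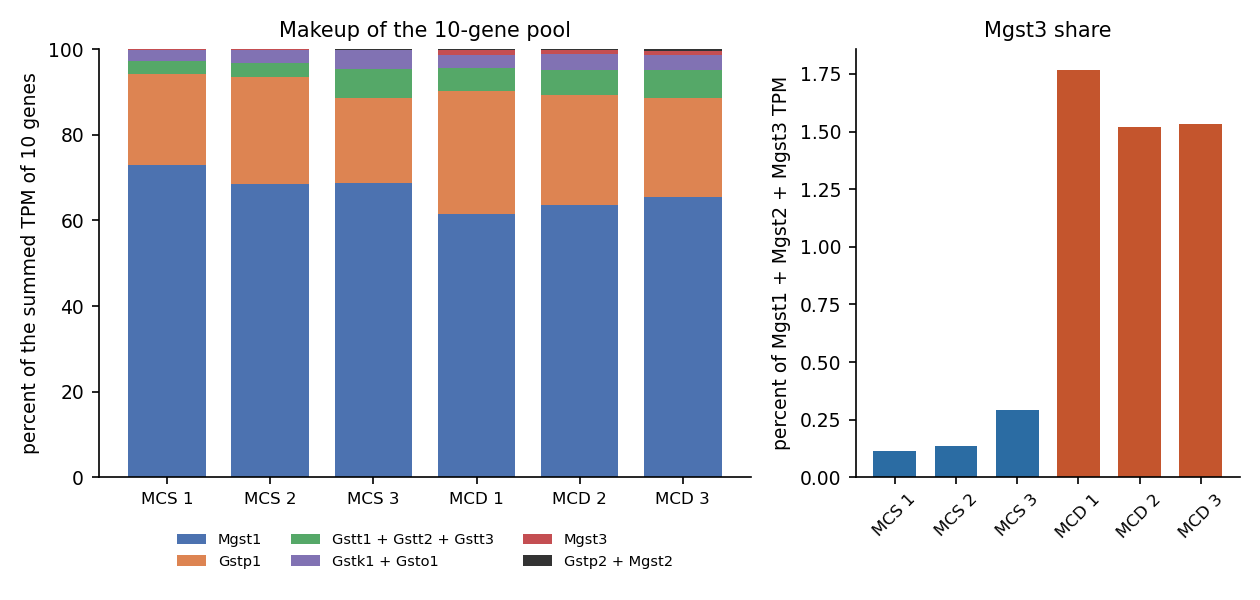
Left, each library's share of the summed TPM of the 10 genes, as stacked bars in percent; right, the share of Mgst3 in the summed TPM of the 3 microsomal genes, as bars from 0. Mgst1 and Gstp1 fill most of every bar, and the Mgst3 share is at most 0.293% in MCS and at least 1.52% in MCD libraries.

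Gstp1 (ENSMUSG00000060803), the main pi transferase of mouse liver, was the gene with the next highest level. It had 1148, 1237 and 1019 CPM on MCS and 1008, 1109 and 536 CPM on MCD. The diets overlapped, and MCD replicate 3 was the low library. The log2 fold change was −0.36 ± 0.29 (adjusted p = 0.396), and it was 0.15 with library size alone and −0.10 without MCD replicate 3. Gstp2 (ENSMUSG00000038155), its near copy, was far lower, with 2.76, 2.42 and 3.64 CPM on MCS and 6.07, 3.57 and 7.20 CPM on MCD. MCD replicate 2 lay below the highest MCS library and the other 2 MCD libraries above it. Its log2 fold change was 0.93 ± 0.33 and did not pass (adjusted p = 0.0706).

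Gstp2 lay above 0 in each of the 15 alternative fits (0.71 to 1.55) and passed in 5 of them. These were library size alone, both TPM scales, the fit without MCD replicate 2 (1.14, adjusted p = 0.0174) and the replicate block (0.91, adjusted p = 0.0444), and on the first 3 of these scales the median of all genes lay above 0.5. Gstp1 had 270 to 481 times the TPM of Gstp2 in the MCS libraries and 70.7 to 303 times in the MCD libraries. With 32 to 66 counts per MCS library for Gstp2 against 16381 to 19963 for Gstp1, a small exchange of reads between the copies would change the Gstp2 value, and the size of that exchange was not tested. For Gstp1 and Gstp2 summed the value was −0.35 ± 0.29 (adjusted p = 0.400), and 0.16 with library size alone. Adding Gstp3, which went from 13.3 ± 0.806 to 18.3 ± 3.21 CPM (0.46 ± 0.17, adjusted p = 0.0751), gave −0.34 ± 0.29 (adjusted p = 0.414).

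**Figure D3:**
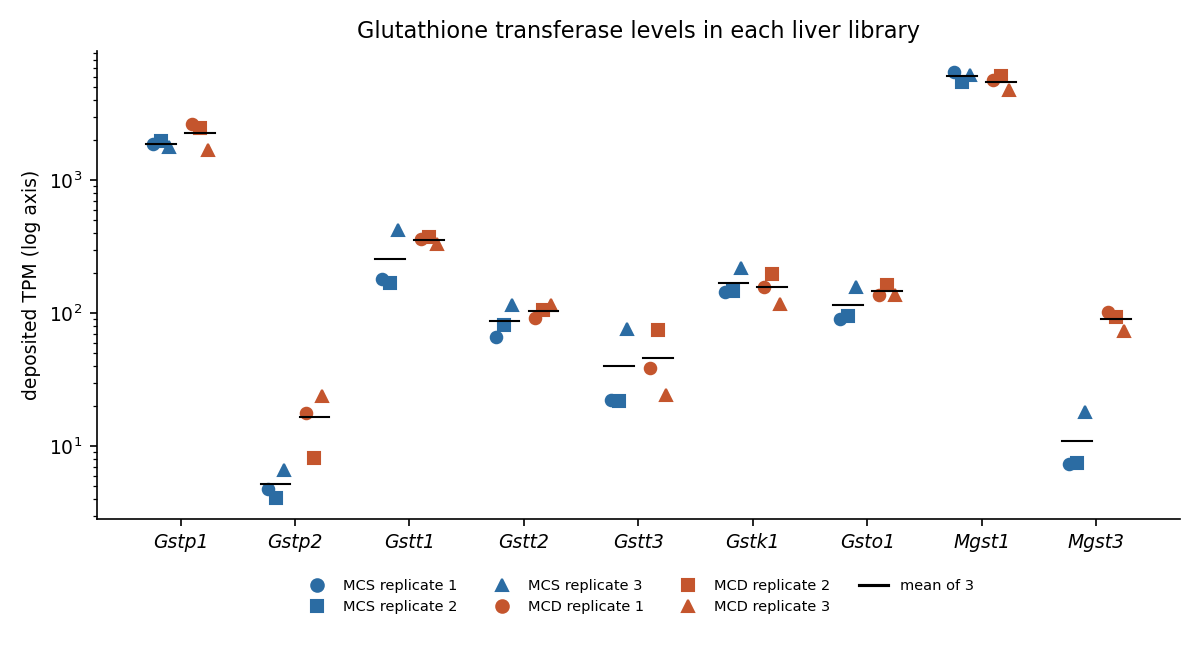
Deposited TPM (log axis) of 9 genes in each library, with MCS in blue, MCD in orange, marker shapes for replicates and bars for the mean of 3. Mgst2, with 0 in 2 libraries, is not drawn; Mgst3 is the gene whose MCS and MCD points are farthest apart, from a mean of 11.03 to 90.3 TPM.

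The theta genes, whose enzymes act on small halogenated compounds and on organic peroxides, did not pass in any of the 3 cases. Gstt1 (ENSMUSG00000001663) had 137, 133 and 300.001 CPM on MCS and 171, 207 and 129 CPM on MCD. MCS replicate 3 was 2.22 times the mean of the other MCS libraries. The log2 fold change of Gstt1 was −0.17 ± 0.33 (adjusted p = 0.737), and without MCS replicate 3 it was 0.32 (adjusted p = 0.363). Without MCS replicate 3 and MCD replicate 3 together, a setting chosen after seeing the data, Gstt1 passed upward (0.48, adjusted p = 0.0258). In that fit 26.9% of the 12516 genes tested passed. Gstt3 (ENSMUSG00000001665) was more uneven still, with 30.4, 29.8 and 97.4 CPM on MCS and 32.3, 75.6 and 16.97 CPM on MCD.

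In each diet a single library was high for Gstt3: MCS replicate 3 was 3.23 times and MCD replicate 2 was 3.07 times the mean of the other libraries of its diet. The log2 fold change of Gstt3 was −0.34 ± 0.67 (adjusted p = 0.742), and it ran from −1.12 without MCD replicate 2 to 0.46 without MCS replicate 3. Gstt2 (ENSMUSG00000033318) was steadier, at 65.6, 83.2 and 102.9 CPM on MCS and 55.6, 73.9 and 58.4 CPM on MCD (−0.42 ± 0.19, adjusted p = 0.140). It passed without MCD replicate 2 (−0.59, adjusted p = 0.0447). For the 3 theta genes summed the value was −0.26 ± 0.33 (adjusted p = 0.601), and 0.18 without MCS replicate 3. Gstt4, the theta gene between Gstt1 and Gstt2, had 0 counts in all 6 libraries.

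Gstk1 (ENSMUSG00000029864), the kappa transferase of mitochondria and peroxisomes, had 99.1, 103.5 and 142 CPM on MCS and 67.1, 101 and 42.5 CPM on MCD. Only MCD replicate 2 reached into the range of the MCS libraries. The log2 fold change was −0.71 ± 0.30 and did not pass (adjusted p = 0.113), while without MCD replicate 2 it was −1.09 (adjusted p = 0.00854). That was the 1 call among the 15 alternative fits, in which Gstk1 ran from −1.09 to −0.11 with adjusted p of up to 0.690. Gsto1 (ENSMUSG00000025068), an omega enzyme that reduces dehydroascorbate and mixed disulfides, had 79.5, 86.4 and 130 CPM on MCS and 75.1, 107 and 62.7 CPM on MCD, with overlap. Its log2 fold change was −0.27 ± 0.25 (adjusted p = 0.443), and 0.23 with library size alone.

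By TPM the order on MCS was Mgst1 (6055 ± 527), Gstp1 (1889 ± 96.4), Gstt1 (258 ± 143), Gstk1 (170 ± 43.3), Gsto1 (115 ± 37.9), Gstt2 (87.5 ± 24.8), Gstt3 (40.4 ± 31.6), Mgst3 (11.03 ± 6.15), Gstp2 (5.19 ± 1.298) and Mgst2 (0.0430 ± 0.0745). The ranges of neighbours in this order overlapped from Gstt1 to Gstt3, and did not overlap for the others. On MCD the order was the same except that Mgst3 (90.3 ± 14.6) stood between Gstt2 (104.7 ± 12.0) and Gstt3 (45.9 ± 25.9), with ranges that overlapped both. The MCD ranges of Gstk1 and Gsto1 also overlapped, and those of the other neighbours did not. Mgst3 thus moved above Gstt3 in the MCD mean. MCD replicate 2, in which Gstt3 had 74.7 TPM and Mgst3 94.0 TPM, kept that order within the library.

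The 10 genes together took 0.800% to 0.897% of all TPM in the MCS libraries and 0.728% to 0.957% in the MCD libraries. Within this pool Mgst1 held 73.05%, 68.6% and 68.7% on MCS and 61.4%, 63.7% and 65.4% on MCD. Every MCD share was below every MCS share, a mean difference of −6.61 percentage points. The Mgst3 share went from 0.126% ± 0.0657 to 1.04% ± 0.0631 (SD, n = 3), without overlap. Gstp1 held 19.98% to 24.8% on MCS and 23.3% to 28.8% on MCD, with overlap. Gstp2 went from 0.0599% ± 0.0123 to 0.202% ± 0.123, a mean difference of 0.142 points that was 0.0778 points without MCD replicate 3.

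Other genes of glutathione use were counted from fixed lists, in the same fit, where 14.8% of all tested genes rose and 9.97% fell. The share that passed in either direction was 10.6%, 10.3% and 18% without MCS replicates 1, 2 and 3. It was 11.5%, 34.1% and 19.7% without MCD replicates 1, 2 and 3, and 43.2% with library size alone. List counts in those fits are read against these shares. Of 12 tested alpha and mu transferases, further soluble classes, 8 rose, 0 fell and 4 did not pass, with a median log2 fold change of 1.58 against −0.34 for the 9 genes above and 0.01 for all genes. Gsta1 and Gstm3 rose by 6.78 ± 0.36 and 5.44 ± 0.33 (adjusted p = 5.59e-05 and 8.67e-05). The count was 5 when either of MCS replicates 1 and 2 or MCD replicate 1 was left out. The summed level of that list was 1216 to 2255 CPM on MCS and 2389 to 4418 CPM on MCD. Among 5 tested transferase and MAPEG relatives 2 rose, Alox5ap, which hands arachidonic acid to 5-lipoxygenase (1.85 ± 0.26, adjusted p = 0.00239), and Hpgds, a prostaglandin D synthase (4.07 ± 0.78, adjusted p = 0.00792). Ltc4s, the leukotriene C4 synthase of blood cells, was at 0.320 ± 0.439 CPM on MCS and 0.367 ± 0.285 CPM on MCD and was not tested.

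Of 11 genes of glutathione synthesis and recycling 3 rose, 2 fell and 6 did not pass. Glutathione synthetase (Gss) rose by 0.85 ± 0.18 (adjusted p = 0.0109) and the cystine carrier Slc7a11 by 3.29 ± 0.70 (adjusted p = 0.0123), while Cbs, the entry enzyme of transsulfuration, fell by 1.40 (adjusted p = 0.0111). With either of MCS replicates 1 and 2 or MCD replicate 1 left out the counts were 1 up and 1 down, without MCD replicate 2 they were 2 up and 4 down, and with library size alone 6 rose. Both subunits of glutamate-cysteine ligase, Gclc and Gclm, had values near 0 (0.09 ± 0.18 and −0.05 ± 0.16). In the conjugate export and mercapturate list 2 of 15 rose and 3 fell, among them the exporter Abcc1 (2.204 ± 0.52, adjusted p = 0.0193), the acetyltransferase Nat8f1 (−1.01 ± 0.20, adjusted p = 0.00951) and the aminopeptidase Lap3 (−0.73 ± 0.19, adjusted p = 0.0274). With library size alone none of this list fell, and without MCS replicate 1 or MCD replicate 1 none rose and 1 fell. Without MCD replicate 2, 3 of this list rose and 6 fell.

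Glutathione peroxidases rose in 3 of 7 cases and fell in none, with 5 rising by library size alone. The smallest p-values among the 3 were those of Gpx3 (1.69 ± 0.26, adjusted p = 0.00346) and Gpx7 (2.24 ± 0.40, adjusted p = 0.00601). In the leukotriene list 2 of 4 tested genes rose, Alox5ap and the dipeptidase Dpep2 (4.82 ± 0.69, adjusted p = 0.00243), and Alox5 was too low to test. Of 19 targets of NRF2, the factor that induces many transferases, 12 rose and 1, the malic enzyme Me1, fell (−1.26 ± 0.16, adjusted p = 0.00145). Slc7a11, Gsr and Abcc4, already counted in the lists above, are among the 12, so the counts of these lists are not separate. The quinone reductase Nqo1 and the pentose phosphate enzyme Pgd rose by 2.33 ± 0.21 and 1.46 ± 0.14 (adjusted p = 0.000396 and 0.000480). Without MCS replicate 1, where 10.6% of all tested genes passed, 7 of the 19 rose. Nfe2l2, which encodes NRF2, rose by 0.64 ± 0.17 (adjusted p = 0.0240), and among 10 regulators it was the 1 that rose, while the receptor gene Nr1i3 fell by 0.79 (adjusted p = 0.0367). Both calls ended when either of MCS replicates 1 and 2 or MCD replicate 1 was left out. That of Nr1i3 also ended without MCS replicate 3 or MCD replicate 3 and in further settings, library size alone among them. Nr1i3 passed in 6 of the 15 alternative fits and Nfe2l2 in 12.

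In the deposited annotation 72 genes, all 10 described here among them, belong to the glutathione metabolism pathway. Of its 62 tested genes 21 rose, 8 fell and 33 did not pass, where 14.8% of all tested genes rose and 9.97% fell. The median log2 fold change was 0.24 for the pathway and 0.01 for all tested genes. Mgst3 was the 1 gene of the 10 among the 21 that rose.

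Liver libraries hold RNA of several cell types. Counts with a library left out are again read against the share of all tested genes, 10.3% to 34.1% in those fits. Genes listed as recruited macrophage markers rose in 14 of 14 cases. Their summed level went from 213 to 269 CPM on MCS to 1542 to 3898 CPM on MCD, highest in MCD replicate 3. The list includes Adgre1, Cd68, Lyz2 and Csf1r, and whether it tells recruited from resident macrophages was not tested. Of 7 Kupffer cell markers, the resident macrophages, 3 fell and 4 did not pass (1 fell without MCS replicate 1 or MCD replicate 1, and 0 without MCS replicate 2), with sums of 305 to 378 CPM on MCS and 224 to 391 CPM on MCD. Mast cell and neutrophil markers rose in 2 of 5 tested cases (1 without MCS replicate 1 or MCS replicate 2, and 4 without MCD replicate 2), with sums of 6.44 to 15.7 CPM on MCS and 8.46 to 37.2 CPM on MCD, and Cpa3, Ms4a2 and Tpsb2 were at 0 in all libraries. Cholangiocyte markers rose in 7 of 9 tested cases (4 without MCS replicate 2), with sums of 62.1 to 87.9 CPM on MCS and 223 to 620 CPM on MCD, again highest in MCD replicate 3. A single gene, Spp1, gave 317, 175 and 521 CPM of the MCD sums of 392, 223 and 620 CPM. Which cells the Spp1 RNA came from was not tested. Stellate cell markers rose in 4 of 12 cases (10 without MCD replicate 2, 1 without MCD replicate 1 or MCD replicate 3, 0 without MCS replicate 2), with sums of 196 to 350 CPM on MCS and 413 to 1830 CPM on MCD. Of 10 hepatocyte markers 4 fell and 6 did not pass (1 fell without MCS replicate 2 or MCD replicate 1), with sums of 97800 to 120145 CPM on MCS and 61200 to 101056 CPM on MCD, lowest in MCD replicate 3. Mgst3 was lowest among the MCD libraries in MCD replicate 3, the library with the most macrophage and cholangiocyte marker RNA, and Gstp2 was highest there. The part of these cell types in the Mgst3 and Gstp2 values was not tested.

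Hepatocyte markers and most of the 9 tested genes were high in the same MCD library. MCD replicate 2 had the highest hepatocyte marker sum of the MCD libraries and the highest level of 8 of the 9 genes, all but Gstp2. MCD replicate 3 had the lowest level of 7 of the 9 genes. On MCS, replicate 3 had the top level of 7 of the 9 genes and the top hepatocyte and sinusoidal endothelial marker sums. Alb gave 73674 of the 120145 CPM of that hepatocyte sum. Alb, Ttr, Apoc3, Serpina1c and Cps1 were highest in this MCS library, but Pck1, Tat, Fgb, Ahsg and Apoa1 were lowest in it. Endothelial sums were 137, 181 and 539 CPM on MCS and 115, 80.6 and 433 CPM on MCD, and 0 of the 10 endothelial markers passed. The endothelial sum was thus also highest in MCD replicate 3. Male-biased liver genes, listed because pi transferase is more abundant in male mouse liver, fell in 12 of 15 cases (median −2.44), with sums of 15920 to 28377 CPM on MCS and 5512 to 9618 CPM on MCD, and female-biased genes rose in 9 of 13 and fell in 1. Gstp1 had the value given above, which did not pass.

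**Figure D4:**
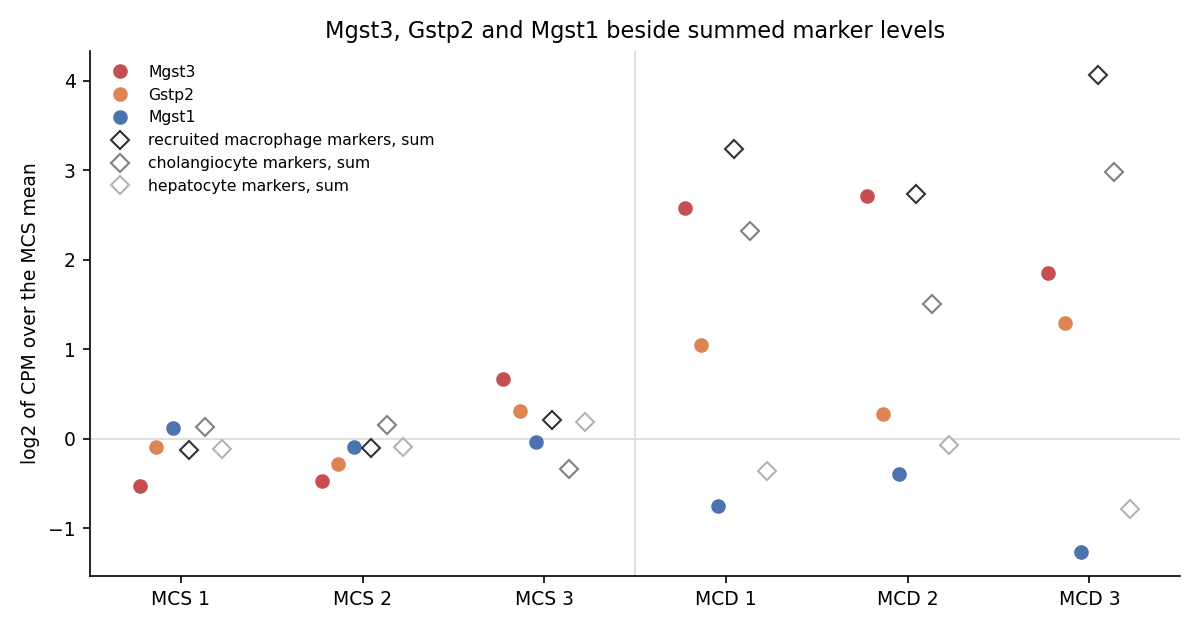
Log2 of CPM over the MCS mean in each of the 6 libraries for Mgst3, Gstp2 and Mgst1 (filled circles) and for the summed recruited macrophage, cholangiocyte and hepatocyte markers (open diamonds). In MCD replicate 3 the macrophage and cholangiocyte sums are highest while Mgst3 and Mgst1 are lowest among the MCD libraries. Spp1 makes up most of the cholangiocyte sum in each MCD library.

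Genes with the most similar pattern over the 6 libraries were found by the root mean square difference of log2 CPM centred on each gene's mean, as a description only. For Mgst3 these were the neurotrophin receptor gene Ntrk2, the lipid droplet coat gene Plin4 and the zinc transporter gene Slc39a4, with differences of 0.279, 0.310 and 0.312. They rose by 2.34 ± 0.22, 2.33 ± 0.21 and 2.40 ± 0.21 (adjusted p = 0.000480, 0.000424 and 0.000351). For Mgst1 the nearest were Ppp1r37, Fastkd1 and Mocs1 (0.0520, 0.0567 and 0.0581), and for Gstk1 they were Aldh7a1, Aldh1l1 and Apoc3 (0.0511, 0.0778 and 0.0845).

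By the authors' deposited table, 2 of the 10 genes had a false discovery rate under 0.05, against 21.8% of its 21899 rows. Those rows include 5317 genes with 0 counts in all libraries, while each of the 10 genes had counts. The authors' deposited table lists Mgst3 at 3.03 on the log2 scale (false discovery rate 4.40e-14) and Gstp2 at 1.68 (false discovery rate 0.00553), both as ratios of mean TPM. For Gstp1 and Mgst1 the authors' deposited table gives 0.27 and −0.13 (false discovery rates 0.605 and 0.535).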

How the data were processed

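Liver RNA was isolated with Trizol and its mRNA enriched on capture beads before fragmentation and cDNA synthesis, per the labels' protocols, which do not mention strand. The submitters' processing notes name RSEM, StringTie 1.3.1, HISAT2 2.1.0, Bowtie2 2.2.8 and fastp 0.18.0 without saying what each did, and the build GRCm39. The deposited table holds counts per gene and library, read here as estimated counts rounded to whole numbers, since 64 cells have a count of 0 and a TPM above 0. The deposited TPM sum to the same total in each library, and the authors' log2 fold change is the ratio of mean TPM. How the authors' p-value and FDR were obtained is not stated in the sources at hand.

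Samples were grouped by the diet in their titles. Counts were tested with edgeR 4.0.16 in R 4.3.3 (filterByExpr with a minimum count of 10, TMM, robust quasi-likelihood, diet as the only term), and genes were called at adjusted p under 0.05. The SE was obtained from the fold change and the F statistic (log2 fold change over the root of F). Class sums replaced their genes in the whole table. Alternatives used DESeq2 1.42.0, limma 3.58.1 on log2(TPM + 1) and log2(TPM + 0.1), other scalings and filters, a replicate block and leaving out each library. Counting intervals are 95% and cover counting error only. The scripts were tested on simulated data. Coding sequences are the longest open reading frames of GENCODE M21 transcripts that match the annotated length. The genes, lists and named genes (from each list the 2 called genes with the smallest p in the commoner direction and the 1 in the other) were chosen with earlier results of these data known. Gstp3, Gstt4, Ltc4s, Gclc, Gclm, Alox5, Cpa3, Ms4a2 and Tpsb2 fall outside that rule and were named once their values were known, and the TGANTCA motif and the pathway count were also added then.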

Additional observations from a re-analysis of the deposited data

How the results depend on the processing

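Of all genes, 3117 were called, against 5443 with library size alone, 5713 and 5992 on the log2(TPM + 1) and log2(TPM + 0.1) scales, 1058 at adjusted p under 0.01, and 1347 to 4435 with a library left out. Calls among the 9 genes numbered 1, where 24.7% of all tested genes were called. They numbered 2 with library size alone (43.2% of the genes tested in that fit), DESeq2 (22.7%), log2(TPM + 1) (45.3%) and log2(TPM + 0.1) (47.6%). They also numbered 2 in the replicate block (26.1%) and without the libraries numbered 3 of both diets (26.9%), a setting chosen after seeing the data. With a library left out, calls among the 9 genes numbered 1 to 5, against 10.3% to 34.1% of all tested genes. Library size alone, log2(TPM + 1) and log2(TPM + 0.1) turned the sign of Gstp1 (0.15, 0.24, 0.24), Gstt1 (0.33, 0.59, 0.59), Gstt2 (0.11, 0.29, 0.29), Gstt3 (0.082, 0.29, 0.30), Gsto1 (0.23, 0.39, 0.39), the Gstp1 and Gstp2 sum (0.16, 0.25, 0.25), the sum with Gstp3 (0.17, 0.27, 0.27), the theta sum (0.24, 0.50, 0.50) and the endothelial marker Stab2 (0.14, 0.38, 0.41). Without MCS replicate 3 Gstt1, Gstt3, the theta sum and Stab2 had 0.32, 0.46, 0.18 and 0.35, and Gstt3 had 0.04 without MCD replicate 3. Without the libraries numbered 3 of both diets Gstt1, Gstt3, Gsto1 and the theta sum had 0.48, 0.84, 0.13 and 0.36. With a library left out the sums ran from −0.57 to −0.09 (Gstp1 and Gstp2), −0.55 to −0.08 (with Gstp3), −0.52 to 0.18 (theta) and −0.98 to −0.53 (microsomal), and Gstt1, Gstt3 and Stab2 from −0.38 to 0.32, −1.12 to 0.46 and −1.06 to 0.35, and the microsomal sum was −0.748 by DESeq2. By counts in place of TPM the Mgst3 share rose by 1.15 points (0.909 by TPM). Correlations of deviations were 0.06, 0.15 and 0.25 between same-numbered libraries, and ran from −0.22 to 0.13 between differently numbered ones. Each MCD library correlated most with the MCS library of its number, though for MCD replicate 2 the value of MCS replicate 1 was close (0.13). Whether the replicate numbers pair the samples was not tested. In the replicate block Gstp2 was the 1 added call (0.91, adjusted p = 0.0444) and 3283 genes were called in all. Depth left Mgst2 untested, and Gstp2 rests on 32 to 66 counts per MCS library. The cause of these shifts was not tested.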
